A study of Vitis vinifera with 219 samples.

Results

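Berries of the grapevine cultivar Cabernet Sauvignon picked at the end of the 2012 season, on days 74 and 80 after veraison (the onset of colouring and softening), were compared with berries picked on days 53 and 63. These are the last 4 samplings of that season, with 3 libraries a day, so that 6 late libraries stood against 6 earlier ones. They are 4 of the 73 samplings of the series, each of 3 libraries. Members were taken from the labelled cultivar, season and time point alone. The series followed the pericarp transcriptome of Cabernet Sauvignon and Pinot noir through 2012, 2013 and 2014, and its design set harvest at 24.5 °Brix. Both sides came from unthinned vines of 1 clone (FPS 8 on 5C rootstock) in 1 vineyard near Modesto, sampled from 3 rows, and the seeds were taken out while the berries were ground. A library stands for 60 berries pooled from 6 clusters. Each day was a single sampling, so a p-value measures the spread between libraries of a day and not how far the change depends on the day or the season.

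After veraison a grape berry softens, loads hexoses into its vacuoles, loses acid and, in red cultivars, fills its skin with anthocyanins. When fruit is left on the vine past commercial ripeness, import of water and sugar slows, the flesh may lose water and cells may die, and the sugar concentration can go on rising as the berry shrinks. The phenylpropanoid pathway, which starts with phenylalanine ammonia-lyase and branches to stilbenes, flavonols, tannins and anthocyanins, is one of the best studied in this tissue. Dehydrins are hydrophilic proteins made by plant cells that lose water. Expansins and pectin enzymes loosen the cell wall.

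Sugar content, as the labels give it, was 21.24, 26.06 and 22.56 g per 100 ml in replicates 1 to 3 of day 53 and 20.12, 23.83 and 20.47 on day 63. It was 27.63, 26.72 and 27.78 g per 100 ml on day 74 and 25.93, 20.47 and 27.43 on day 80. The late side was sweeter by 3.61 g per 100 ml on average (25.99 ± 2.79 against 22.38 ± 2.27, SD, n = 6 each, exact permutation test, two-sided, p = 0.0433), and the sides overlapped. The same value, 20.47, was given for replicate 2 of day 80 and replicate 3 of day 63. Replicate 2 of day 53, at 26.06, was sweeter than replicate 1 of day 80. Without replicate 2 of day 80 the difference was 4.72 g per 100 ml (p = 0.00649), and in 9 of the 12 repeats that left out 1 library the exact test did not pass.

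Expression is given as RPKM, the authors' read count of a gene scaled by its length and by the mapped reads of the library. The depth behind it is unknown. The sum of RPKM ran from 925040 to 994030 in the earlier libraries and from 878464 to 1008888 in the late ones, where replicate 2 of day 80 was the highest and the other 5 lay at or under 924017. Between 21103 and 22476 genes had a value above 0. Cultivar genes fitted the labels in all 12 libraries: the median of 6 genes read in this cultivar and hardly in Pinot noir was 12.8 to 24.4 RPKM, and the median of 19 Pinot noir genes was 0.

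A single library, replicate 2 of day 80, stood apart from its group. It correlated best with replicate 1 of day 63 (Pearson's r = 0.97 across genes, which are not independent replicates) and less with the other 5 late libraries (0.938 to 0.964). To place each library on a scale from the earlier mean (0) to the late mean (1), the changed genes were called again without that library, and the median of its positions over those genes was taken. The 6 earlier libraries lay between -0.2 and 0.28, and 5 of the late ones between 0.88 and 1.2. The exception was replicate 2 of day 80, at 0.36. Where its removal made or ended the call of a gene named here, both values are given. Within the late side the position followed sugar content (r = 0.987, permutation p = 0.00833, adjusted over 4 tests 0.0333), but the rank correlation did not pass (rho = 0.771, p = 0.103, adjusted 0.137). Without replicate 2 of day 80, r was 0.948 over 5 libraries, with no test made. It was 0.811 over the 4 libraries left after dropping the 2 farthest from the median sugar. Within the earlier side r was 0.73 (permutation p = 0.0958, adjusted 0.137) and rho 0.6 (p = 0.242, adjusted 0.242), and r was -0.0495 without the 2 farthest.

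**Figure D1:**
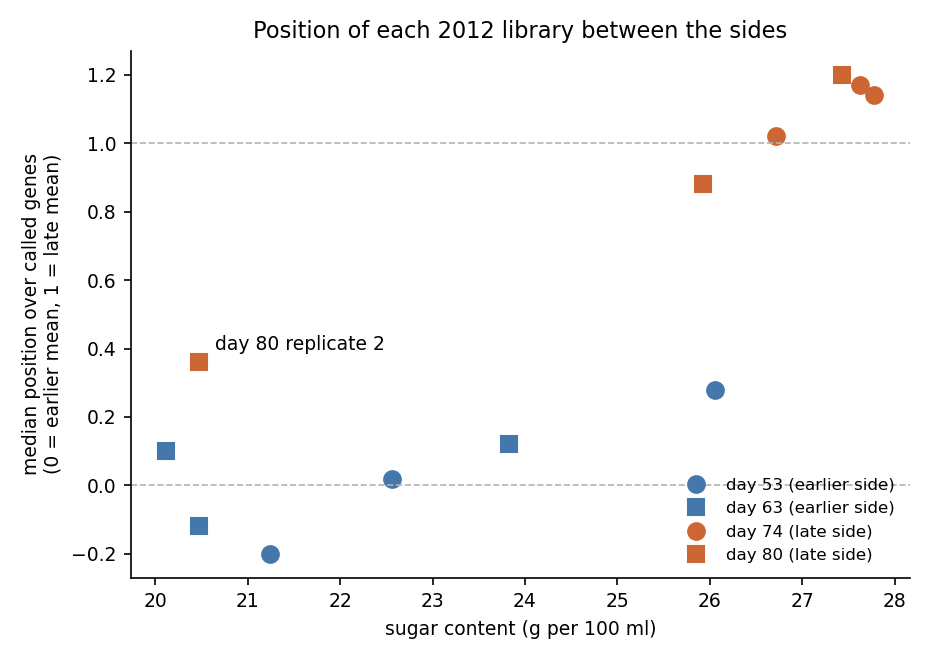
Median position of each of the 12 libraries between the earlier mean (0) and the late mean (1), on the vertical axis, against its sugar content in g per 100 ml. Each point is 1 library, coloured by side and shaped by day. Replicate 2 of day 80 sits at 0.36 and 20.47 g per 100 ml, away from the other 5 late libraries at 0.88 to 1.2.

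Late berries differed from earlier ones in 1083 of 16837 genes tested (6.43%), with 481 higher (2.86%) and 602 lower (3.58%). A gene was called when limma gave an adjusted p under 0.05 and the change on log2(RPKM + 1) was at least 1, a scale that understates the change of weakly expressed genes. At an adjusted p under 0.05 alone, with no size asked for, 8566 of the 16837 genes differed. Of the called genes, 103 changed by at least 2, 45 of them higher and 58 lower. The 6 and 6 libraries did not overlap for 574 of the 1083 called genes, against 17.1% of all genes tested. In 413 of the 1083 (38.1%) replicate 2 of day 80 lay inside the earlier range, though it took part in calling these genes. The split between directions moved with scaling: 380 were higher and 733 lower after median-of-ratios scaling, and 423 and 674 after quantile normalization.

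Of the single steps, only that from day 63 to day 74 held called genes in this fit. That step held 1579 called genes (9.38%), 828 higher (4.92%) and 751 lower (4.46%), against a median change of all genes of 0.156 (561 higher and 989 lower after median-of-ratios scaling, which took that shift away, and 637 and 925 after quantile normalization). Neither the step from day 53 to 63 nor that from day 74 to 80 held a called gene in limma (0% of 16837 each). At an unadjusted p under 0.05 they held 1001 and 2410 genes, and a fit of every library of the series called 46 and 216. The steps were of unequal length, and no test compared them with each other. The lists described next are short groups of genes with known roles, 161 of whose IDs are in the table. Symbols came from published use of these gene IDs, not from the deposited table. In all, 20 of the 94 list genes tested were called, 15 higher and 5 lower (6.43% of all genes were called, 2.86% higher and 3.58% lower). Of these, 17 were also called from day 63 to 74 in the same direction, 19 were called without replicate 2 of day 80, and 7 were called with sugar content as a covariate. Over all genes, 1362 were called without that library and 666 with that covariate. That covariate depended largely on replicate 2 of day 80: within days, 4703 genes followed sugar content (limma, adjusted p under 0.05), and 122 without that library. Leaving out day 74 ended 13 of the 20 calls and leaving out day 63 ended 9, against 1 each without day 53 or day 80. Over all genes, 745 were called without day 74, 1051 without day 63, 1086 without day 53 and 1464 without day 80. How many of the 1083 calls each omission ended was not counted, so these losses are not a trait of the lists.

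**Figure D2:**
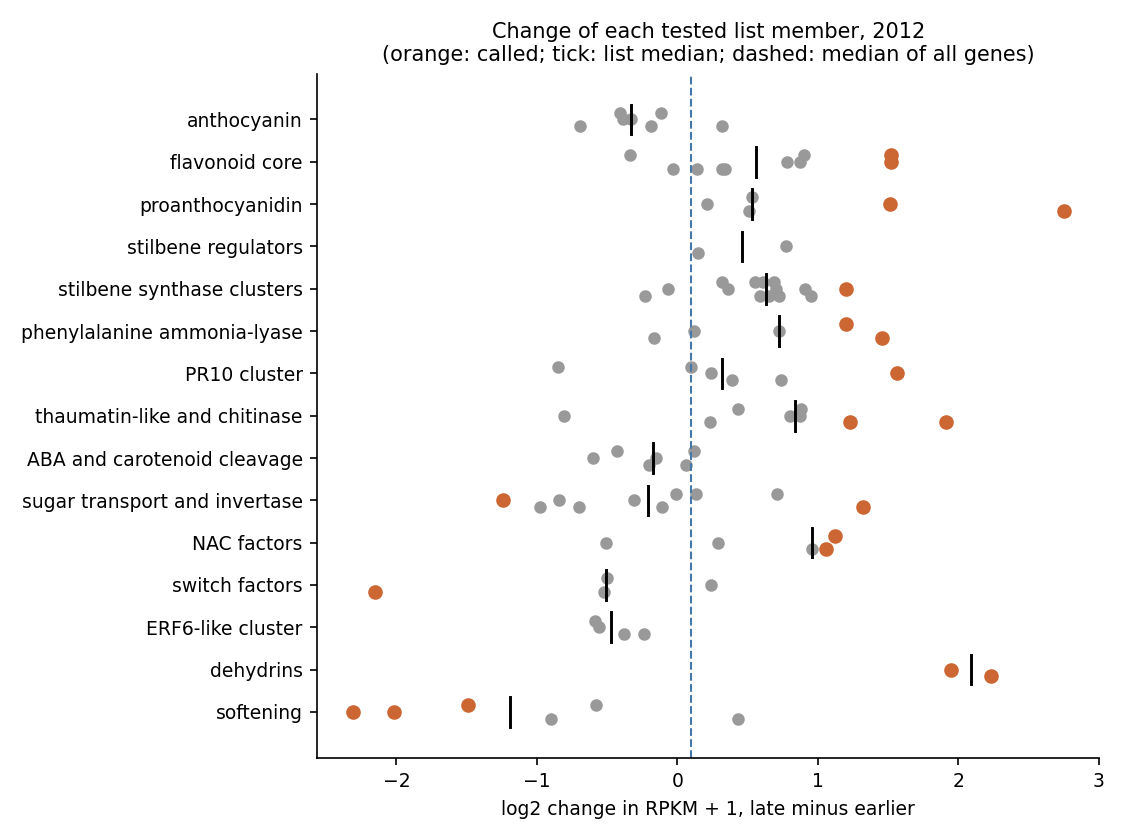
Change of every tested list member between the late and the earlier side, on the log2(RPKM + 1) scale, with 1 row for each list. Orange points are called genes, grey points are not, black ticks are list medians, and the dashed line is the median of all 16837 genes (0.097). Both dehydrins lie at the right and 3 softening genes at the left, and the anthocyanin list has no called member.

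The largest change shared by a whole list was in the dehydrins. Both genes of the list rose, with a median change of 2.09 against 0.097 over all genes (2.86% of all genes were called higher). DHN2 (VIT_03s0038g04390) ranged over 0.472 to 4.32 RPKM (median 1.74) in the earlier libraries and 3.77 to 21.9 RPKM (median 13.7) in the late ones. Its lowest late value, 3.77 RPKM in replicate 2 of day 80, was inside the earlier range, and the other 5 late values were above it. The log2 change was 2.23 ± 0.40 (SE, adjusted p = 0.00134), and 2.55 without that library. DHN1 (VIT_04s0023g02480) ranged over 7.14 to 31 RPKM (median 14) before and 41.7 to 75 RPKM (median 69.8) after, with no overlap, and changed by 1.95 ± 0.32 (SE, adjusted p = 0.000938). Both were called under every alternative tried, with a smaller change of 1.21 for DHN2 and 1.32 for DHN1 when sugar content was a covariate. No measure of berry water is in the labels, and the part of water loss in these values was not tested.

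At the entry of the phenylpropanoid pathway, 2 of 5 tested phenylalanine ammonia-lyase genes rose (16 are in the table), and the list's median change was 0.72. Over all genes, 2.86% were called higher. The enzyme turns phenylalanine into cinnamate. VIT_06s0004g02620 ranged over 5.4 to 17.1 RPKM (median 8.44) in earlier libraries and 19 to 37.6 RPKM (median 26.2) in late ones, and every late library was above every earlier one. It changed by 1.46 ± 0.21 (SE, adjusted p = 0.000429), and by 1.50 without replicate 2 of day 80. VIT_13s0019g04460, at 12.2 to 33.8 RPKM (median 20.9) and 31.6 to 63.1 RPKM (median 46), changed by 1.20 ± 0.21 (SE, adjusted p = 0.00137). Its sides overlapped in 2 libraries: replicate 2 of day 53, the sweetest earlier one, had 33.8 RPKM and replicate 2 of day 80 had 31.6. VIT_08s0040g01710 did not pass (0.72, adjusted p = 0.12) but was called without that late library (1.01), and VIT_16s0039g01100 stood at -0.17 (adjusted p = 0.483). VIT_08s0040g01710 was also called higher from day 63 to 74 (1.4, adjusted p = 0.0484).

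Stilbene synthases, which make resveratrol from the products of that pathway, were low throughout. Only 14 of the 49 genes of the 2 clusters reached 1 RPKM in 3 libraries. Of the 14, with a list median of 0.63, 1 was called, in the higher direction (6.43% of all genes were called, 2.86% higher). A single called gene is too few to set the list apart. That gene, VIT_16s0100g01200, ranged over 0.306 to 2.02 RPKM (median 0.738) in earlier libraries and 0.56 to 8.23 RPKM (median 3.04) in late ones. Apart from replicate 2 of day 80 (0.56 RPKM), the late values were all above the earlier ones. It changed by 1.20 ± 0.36 (SE, adjusted p = 0.0183), and by 1.53 without that library, when 3 of the 14 were called higher (654 of all 16837 genes were). Its call was lost without replicate 3 of day 80, day 63 or day 74. The neighbouring VIT_16s0100g01030 (0.95, adjusted p = 0.0514) and VIT_16s0100g00830 (0.72, adjusted p = 0.0437) were not called between the sides. VIT_16s0100g01030 was called without replicate 2 of day 80 (1.19). From day 63 to 74, 4 of the 14 were called higher (4.92% of all genes were). Among them were VIT_16s0100g00830 (1.09, adjusted p = 0.0398) and VIT_16s0100g00950 (1.09, adjusted p = 0.0409). Neither of the 2 tested MYB activators of these genes was called (median 0.46). MYB14 had a median of 0.487 RPKM in earlier libraries and 2.1 RPKM in late ones. It stood at 0.77 (adjusted p = 0.0446), under the size asked for, and at 1.03 without replicate 2 of day 80, when it was called. From day 63 to 74 it was called higher (1.29, adjusted p = 0.028). MYB15 stood at 0.15 (adjusted p = 0.525). The synthases of a cluster, like the ammonia-lyases, are close copies, and how reads shared by copies were assigned is not given in the sources used here.

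In the flavonoid core, 2 of 10 tested genes rose (2.86% of all genes were called higher) and none fell, with a median of 0.56. DFR (VIT_18s0001g12800), dihydroflavonol reductase, which feeds both tannins and anthocyanins, ranged over 33.9 to 58.4 RPKM (median 45.7) in earlier libraries and 64.3 to 187 RPKM (median 148) in late ones. The sides did not overlap, and replicate 2 of day 80 (64.3 RPKM) was the lowest late library by far. The log2 change was 1.52 ± 0.21 (SE, adjusted p = 0.000363). FLS (VIT_18s0001g03470), flavonol synthase, ranged over 0.0796 to 6.86 RPKM (median 2.24) and 0.796 to 22.7 RPKM (median 8.39), with 22.7, 9.62 and 19 RPKM on day 74. Its change of 1.52 ± 0.52 (SE, adjusted p = 0.0307) was called in 12 of 28 alternatives and was lost in the other 16, so its call is uncertain. CHS1, a chalcone synthase, reached the threshold from day 63 to 74 (1.35, adjusted p = 0.00878) but not between the sides (0.90, adjusted p = 0.00755). The abundant CHS3 (-0.34, adjusted p = 0.176) and F3H2, a flavanone hydroxylase (0.14, adjusted p = 0.31), did not pass. CHS3 stood at -0.53 (adjusted p = 0.00264) without replicate 2 of day 80, still under the size asked for.

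Of 5 tested tannin genes 2 rose (2.86% of all genes were called higher) and none fell, with a median of 0.53. MYBPA1 (VIT_15s0046g00170), a MYB activator of tannin synthesis, read 3, 5.54 and 4 RPKM in replicates 1 to 3 of day 53 and 5.81, 8.37 and 1.24 on day 63. It read 31.1, 51.7 and 58.3 RPKM on day 74 and 43.8, 3.88 and 77.1 on day 80. An earlier-side level was seen in replicate 2 of day 80, and the other 5 late libraries were all above the earlier ones. The log2 change was 2.75 ± 0.60 (SE, adjusted p = 0.00392), and 3.35 without that library. LAR2 (VIT_17s0000g04150), leucoanthocyanidin reductase, which makes catechin, ranged over 0.75 to 4.39 RPKM (median 1.52) and 0.959 to 16.7 RPKM (median 8.03), and changed by 1.51 ± 0.38 (SE, adjusted p = 0.00741). Here too replicate 2 of day 80, at 0.959 RPKM, was the late library inside the earlier range.

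MYB5a (0.53, adjusted p = 0.0136) and MYB5b (0.21, adjusted p = 0.0117), further regulators of the flavonoid pathway, changed too little to be called. Tannin genes are also active in seeds, which had been removed. ANR, the other tannin reductase, stood at 0.187 to 0.76 RPKM (median 0.545) in earlier libraries and 0.363 to 1.78 RPKM (median 1.13) in late ones, and LAR1 at 0 to 0.204 RPKM (median 0.118) and 0.0627 to 0.475 RPKM (median 0.128). MYBPA2 had a median of 0 on both sides. Whether seed material took part in the rise of MYBPA1 and LAR2 was not tested. In bulk pericarp, fewer cells of a type and less RNA per cell cannot be told apart.

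No anthocyanin gene was called among 7 tested (6.43% of all genes were called), and their median change was -0.33. GST4, which carries anthocyanins towards the vacuole, ranged over 406 to 636 RPKM (median 469) in earlier libraries and 286 to 759 RPKM (median 356) in late ones, where replicate 2 of day 80 gave the highest value of the 12. It stood at -0.33 (adjusted p = 0.195), and AM1, a vacuolar anthocyanin transporter, at -0.69 (adjusted p = 0.0269). Without that library GST4 was at -0.54 (adjusted p = 0.00139) and AM1 at -0.91 (adjusted p = 0.000399), still too small to be called. AM1 was called lower in the step from day 63 to 74 (-1.04, adjusted p = 0.0249).

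**Figure D3:**
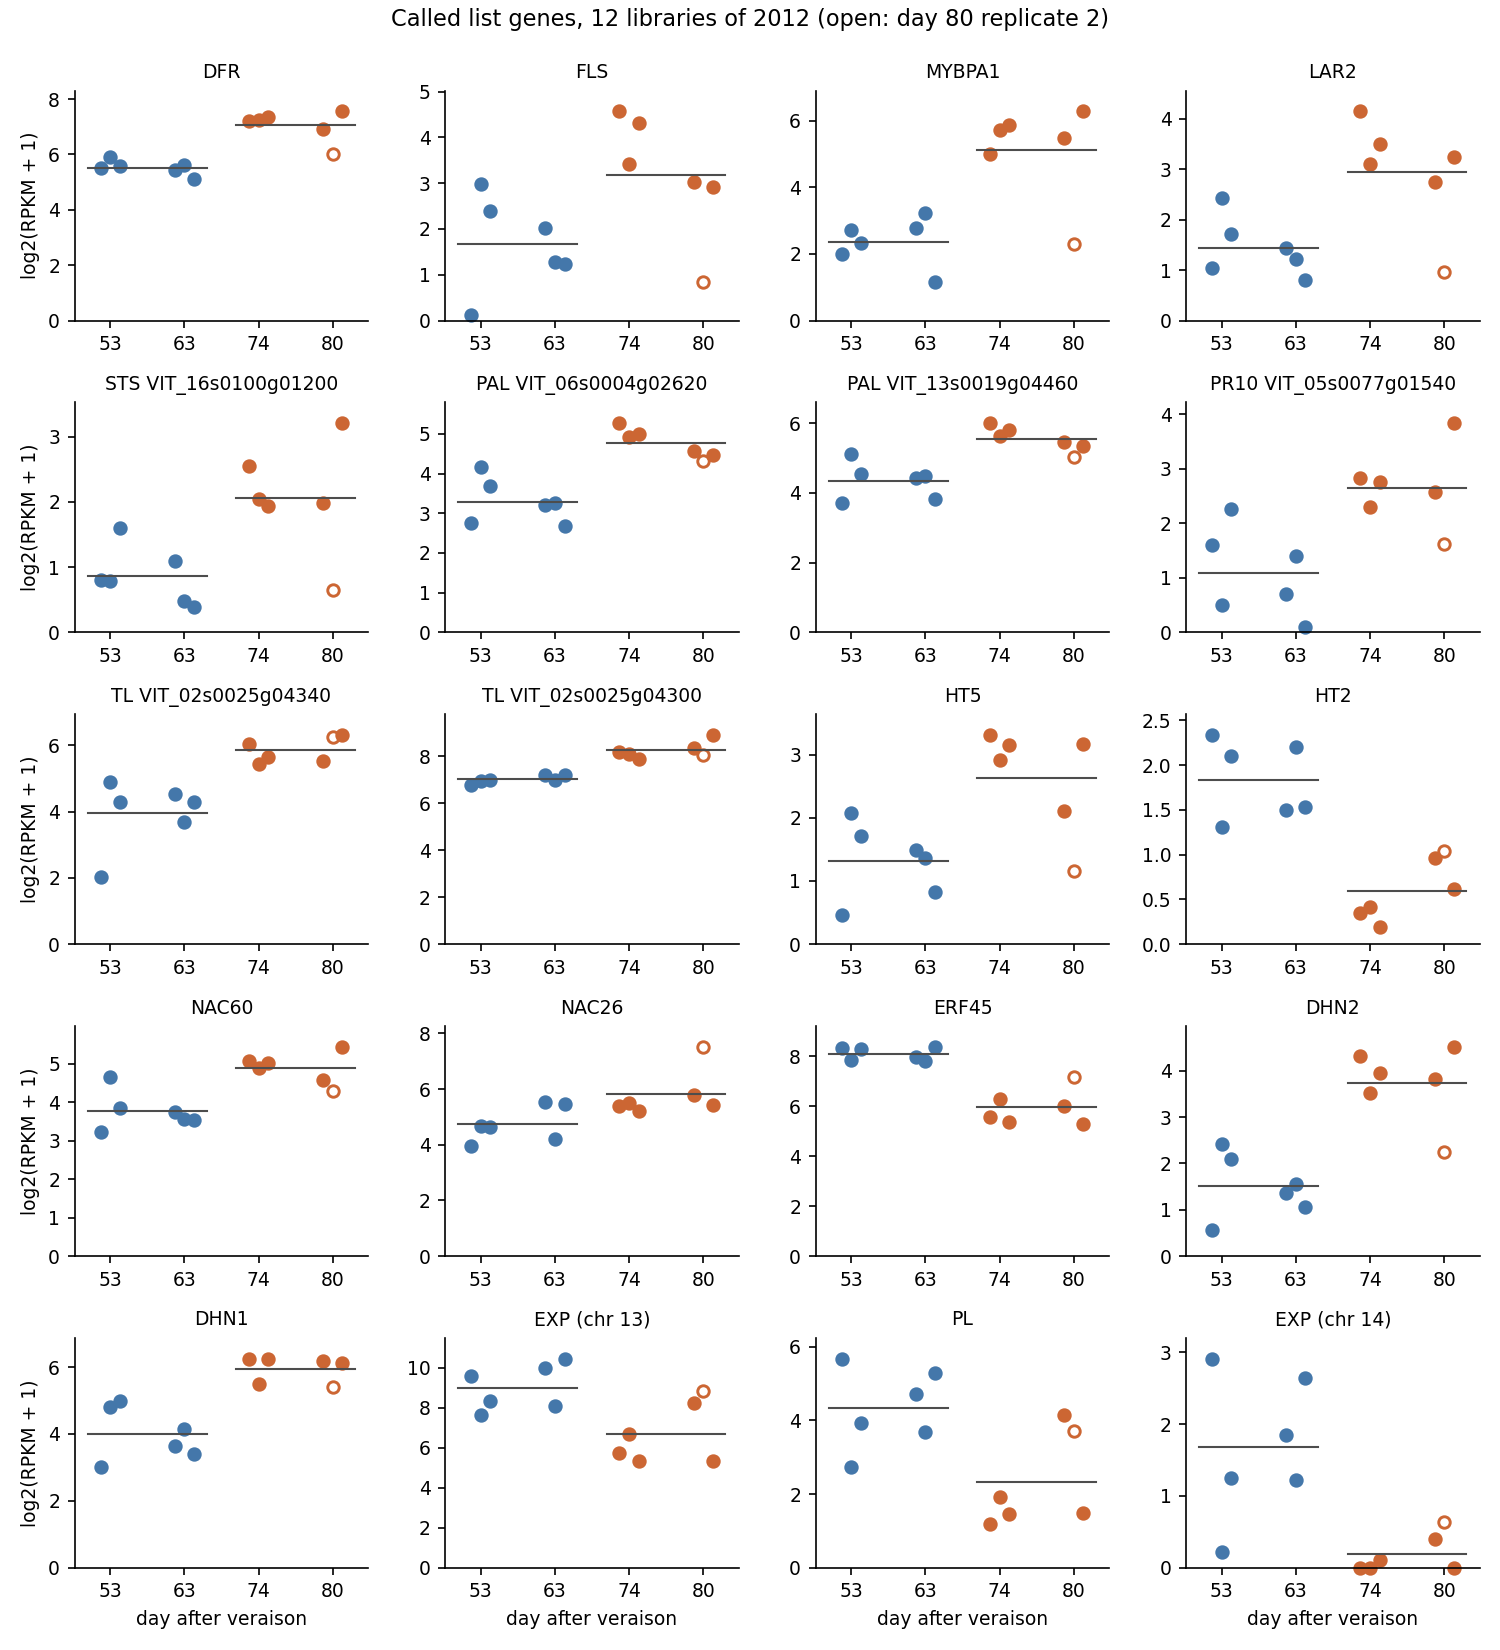
RPKM on the log2(RPKM + 1) scale of the 20 called list genes, by day after veraison. Each point is 1 library (blue earlier, orange late, open for replicate 2 of day 80), and lines mark the side means. The open point sits inside the earlier range for 12 of the 20 genes, among them MYBPA1 and LAR2. The sides do not overlap for 7 of the 20, among them HT2, ERF45 and DHN1 (17.1% of all genes tested did not).

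Thaumatin-like proteins and chitinases make up much of the soluble protein of ripe berries. Of 8 tested thaumatin-like and chitinase genes 2 rose (2.86% of all genes were called higher) and none fell, with a median of 0.83. The thaumatin-like gene VIT_02s0025g04300 ranged over 109 to 147 RPKM (median 125) in earlier libraries and 234 to 478 RPKM (median 281) in late ones, and changed by 1.23 ± 0.13 (SE, adjusted p = 8.95e-05). Its neighbour VIT_02s0025g04340 ranged over 3.05 to 29 RPKM (median 18.5) and 42 to 78.4 RPKM (median 56.9), and changed by 1.91 ± 0.41 (SE, adjusted p = 0.00355). Neither overlapped between the sides, and for both replicate 2 of day 80 was as high as other late libraries (268 and 75.9 RPKM). Another neighbour, VIT_02s0025g04330, stood at 0.88 (adjusted p = 0.0432) and was called with sugar content as a covariate (1.39).

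The chitinase VIT_05s0094g00340, the most abundant gene of that list, ranged over 2146 to 5516 RPKM (median 3318) in earlier libraries and 1008 to 6136 RPKM (median 1400.3) in late ones. The highest of all 12 values was that of replicate 2 of day 80. The gene stood at -0.81 (adjusted p = 0.0732) over all libraries and was called lower without that one (-1.09). From day 63 to 74 it was called lower (-1.58, adjusted p = 0.0261). In the cluster of PR10 genes (pathogenesis-related proteins), 1 of 6 tested rose (2.86% of all genes were called higher), with a median of 0.31. VIT_05s0077g01540 ranged over 0.0708 to 3.82 RPKM (median 1.13) and 2.09 to 13.3 RPKM (median 5.35), and changed by 1.56 ± 0.40 (SE, adjusted p = 0.00807). The abundant member VIT_05s0077g01580 had a median of 373 RPKM in earlier libraries and 164 RPKM (-0.85, adjusted p = 0.00899), and was called lower without replicate 2 of day 80 (-1.05), which had 349.9 RPKM. VIT_05s0077g01560 (0.39, adjusted p = 0.498) and VIT_05s0077g01530 (0.74, adjusted p = 0.0331) were not called.

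Among genes of sugar transport and vacuolar invertase, 1 of 10 tested rose and 1 fell, with a median of -0.21. Over all genes, 2.86% were called higher and 3.58% lower. Without replicate 2 of day 80 the counts were 1 higher and 3 lower (654 and 708 of all 16837 genes). After quantile normalization or median-of-ratios scaling they were 1 and 2 (423 and 674 of all genes, and 380 and 733). HT5 (VIT_05s0020g03140), a hexose transporter of the plasma membrane, ranged over 0.383 to 3.19 RPKM (median 1.68) in earlier libraries and 1.24 to 8.9 RPKM (median 7.22) in late ones. It changed by 1.32 ± 0.34 (SE, adjusted p = 0.00906), and replicate 2 of day 80 (1.24 RPKM) was the late library inside the earlier range. HT2 (VIT_18s0001g05570), of the same family, ranged over 1.48 to 4.05 RPKM (median 2.59) and 0.141 to 1.05 RPKM (median 0.433) without overlap and fell, with a change of -1.24 ± 0.19 (SE, adjusted p = 0.000625). HT3 was called lower from day 63 to 74 (-1.54, adjusted p = 0.04), with a change of -0.84 between the sides (adjusted p = 0.0864) that was called without replicate 2 of day 80 (-1.12, adjusted p = 0.0178). SWEET15, a sugar exporter and one of the most abundant transcripts described here, had a median of 1855 RPKM in earlier libraries and 1249 RPKM, a difference of -0.31 that did not pass (adjusted p = 0.166). SWEET10 (-0.70, adjusted p = 0.174) and the sucrose transporter SUC11 (0.13, adjusted p = 0.124) did not pass either. HT6, a transporter of the vacuolar membrane that is named here after its values were seen, ranged over 53.8 to 105 RPKM (median 72.7) and 28.1 to 44.9 RPKM (median 37.7) without overlap. Its change of -0.98 ± 0.17 (SE, adjusted p = 0.00125) was just under the size asked for, and passed it without replicate 2 of day 80 (-1.02).

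Of 6 tested softening genes, which act on the cell wall, 3 fell (3.58% of all genes were called lower) and none rose. The list's median of -1.19 was the lowest of the 15 lists. The expansin VIT_13s0067g02930 read 775, 197 and 322 RPKM on day 53 and 1009, 269.7 and 1404 on day 63. It read 52.9, 101 and 39.4 RPKM on day 74 and 303, 464 and 39.7 on day 80. Levels were lowest on all of day 74 and in replicate 3 of day 80, while replicates 1 and 2 of day 80 were inside the earlier range. The change was -2.31 ± 0.63 (SE, adjusted p = 0.0114), and -2.65 without replicate 2. The pectate lyase PL (VIT_05s0051g00590), which cuts pectin, ranged over 5.68 to 49.9 RPKM (median 19.8) and 1.28 to 16.6 RPKM (median 2.29) and changed by -2.02 ± 0.55 (SE, adjusted p = 0.0113).

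Another expansin, VIT_14s0108g01020, ranged over 0.166 to 6.52 RPKM (median 1.99) and 0 to 0.562 RPKM (median 0.0418), was listed at 0 in 3 late libraries and changed by -1.49 ± 0.39 (SE, adjusted p = 0.00965). XTH (VIT_06s0061g00550), a xyloglucan-modifying enzyme, was called lower from day 63 to 74 (-1.57, adjusted p = 0.031) but not between the sides (-0.58, adjusted p = 0.199). The polygalacturonase PG1, also a pectin enzyme, stood at 0.43 (adjusted p = 0.0117), in the other direction and too small to be called. The spread of the 2 called expansins and of PL inside the earlier side was wide, and none of the 3 was called with sugar content as a covariate. That adjustment depended largely on replicate 2 of day 80, and the part of sugar in these falls was not tested.

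Of the NAC transcription factors, a family with members that drive ripening and senescence, 2 of 5 rose (2.86% of all genes were called higher), with a median of 0.96. NAC60 (VIT_08s0007g07670) ranged over 8.36 to 24 RPKM (median 11.6) in earlier libraries and 18.5 to 42.2 RPKM (median 30.2) in late ones and changed by 1.12 ± 0.24 (SE, adjusted p = 0.00311). Replicates 1 and 2 of day 80 (22.7 and 18.5 RPKM) were under replicate 2 of day 53 (24 RPKM), and all other late libraries were above the earlier ones. Its call was lost in 7 of 28 alternatives, among them leaving out replicate 1 of day 53, replicate 3 of day 80, day 63 or day 74. NAC26 (VIT_01s0026g02710) ranged over 14.5 to 45.9 RPKM (median 24.3) and 35.7 to 182 RPKM (median 43.3), and the top value was that of replicate 2 of day 80. Its change was 1.06 ± 0.35 (SE, adjusted p = 0.0277), but 0.74 and not called without that library, and it was not called after either other scaling. NAC11 ranged over 52.4 to 77.2 RPKM (median 66.2) and 91.1 to 155 RPKM (median 128) with no overlap, but at 0.96 (adjusted p = 0.000504) it was under the size asked for, and passed it without replicate 2 of day 80 (1.07). NAC13 stood at 0.29 (adjusted p = 0.0365). NAC33, a regulator linked to the loss of chlorophyll in berries, was called lower from day 63 to 74 (-1.02, adjusted p = 0.0232).

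ERF45 (VIT_04s0008g06000), an ethylene-response factor among the genes described as switches of berry maturation, fell. It read 318, 233 and 316 RPKM on day 53 and 251, 223 and 332 on day 63. It read 46.8, 78.1 and 40.3 RPKM on day 74 and 63.7, 142 and 38.4 on day 80. No late library reached the lowest earlier one, and replicate 2 of day 80 was the highest of the late side. The change was -2.15 ± 0.28 (SE, adjusted p = 0.00027), -2.41 without that library and -1.45 with sugar content as a covariate. The other 3 switch factors were not called, among them bHLH75 (-0.52, adjusted p = 0.0166) and LBD (0.24, adjusted p = 0.0333).

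None of 6 genes of abscisic acid synthesis and carotenoid cleavage was called, with a median of -0.17, and none of the 4 tested ERF6-like factors of 13 in the table, with a median of -0.47. Over all genes, 6.43% were called. Of the former, CCD1, which cuts carotenoids to aroma compounds, stood at -0.15 (adjusted p = 0.134) and CCD4a at -0.20 (adjusted p = 0.574). CCD4b was called lower from day 63 to 74 (-1.14, adjusted p = 0.0129). Of the latter, VIT_16s0013g01050 (-1.34, adjusted p = 0.0392) and VIT_16s0013g00990 (-1.10, adjusted p = 0.0199) were called lower in that step, and VIT_16s0013g01120 stood at -0.24 between the sides (adjusted p = 0.134).

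Among genes in no list, those with the largest change in each direction were taken, given no overlap of the sides and a mean of at least 5 RPKM. VIT_15s0046g00710 ranged over 0.192 to 2.24 RPKM (median 1.26) in earlier libraries and 7.44 to 66 RPKM (median 42.4) in late ones, a change of 4.06 ± 0.46 (SE, adjusted p = 0.000143). VIT_07s0005g00870 ranged over 2.3 to 15.5 RPKM (median 8.95) and 27.1 to 194 RPKM (median 164), a change of 3.85 ± 0.50 (SE, adjusted p = 0.000268). For both, replicate 2 of day 80 was the lowest late library (7.44 and 27.1 RPKM) but above all earlier ones. In the other direction, VIT_13s0064g01260 ranged over 25.4 to 106 RPKM (median 51.3) and 2.72 to 13.2 RPKM (median 4.51) (-3.09 ± 0.38 SE, adjusted p = 0.000211). VIT_18s0001g06150 ranged over 46.8 to 248 RPKM (median 158) and 5.97 to 37.9 RPKM (median 17.4) (-2.99 ± 0.31 SE, adjusted p = 8.68e-05). All 4 were called under every alternative tried.

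Set against the other 9 samplings of 2012, the late levels were of different kinds. DHN2 was at or under 0.926 RPKM on average up to day 42 and at 2.68 on day 53, 1.52 on day 63, 14.7 on day 74 and 12.9 on day 80. MYBPA1 had been high in young green berries (36.4 RPKM on day -37), was at 1.71 on day 42 and came back to 47 and 41.6. DFR lay between 41.4 and 77.7 RPKM on all days up to 63 and reached 153 on day 74. The late levels of DHN2 and DFR were thus above those of every earlier sampling, whereas that of MYBPA1 was near its level of day -37.

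Both genes that fell and are given here, ERF45 and the chromosome 13 expansin, had been higher in ripening berries than on day 74. ERF45 climbed from 8.97 RPKM on day -37 to 528 on day 32, and was at 55.1 on day 74. The expansin VIT_13s0067g02930 stood at 2148 RPKM on day 0 and 1797 on day 42, and at 64.5 and 269 on the last 2 days. VIT_15s0046g00710 was under 0.2 RPKM on average from day -9 to day 42 and at 40.4 on day 74. These levels are means of 3 libraries and no test was made across the season.

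**Figure D4:**
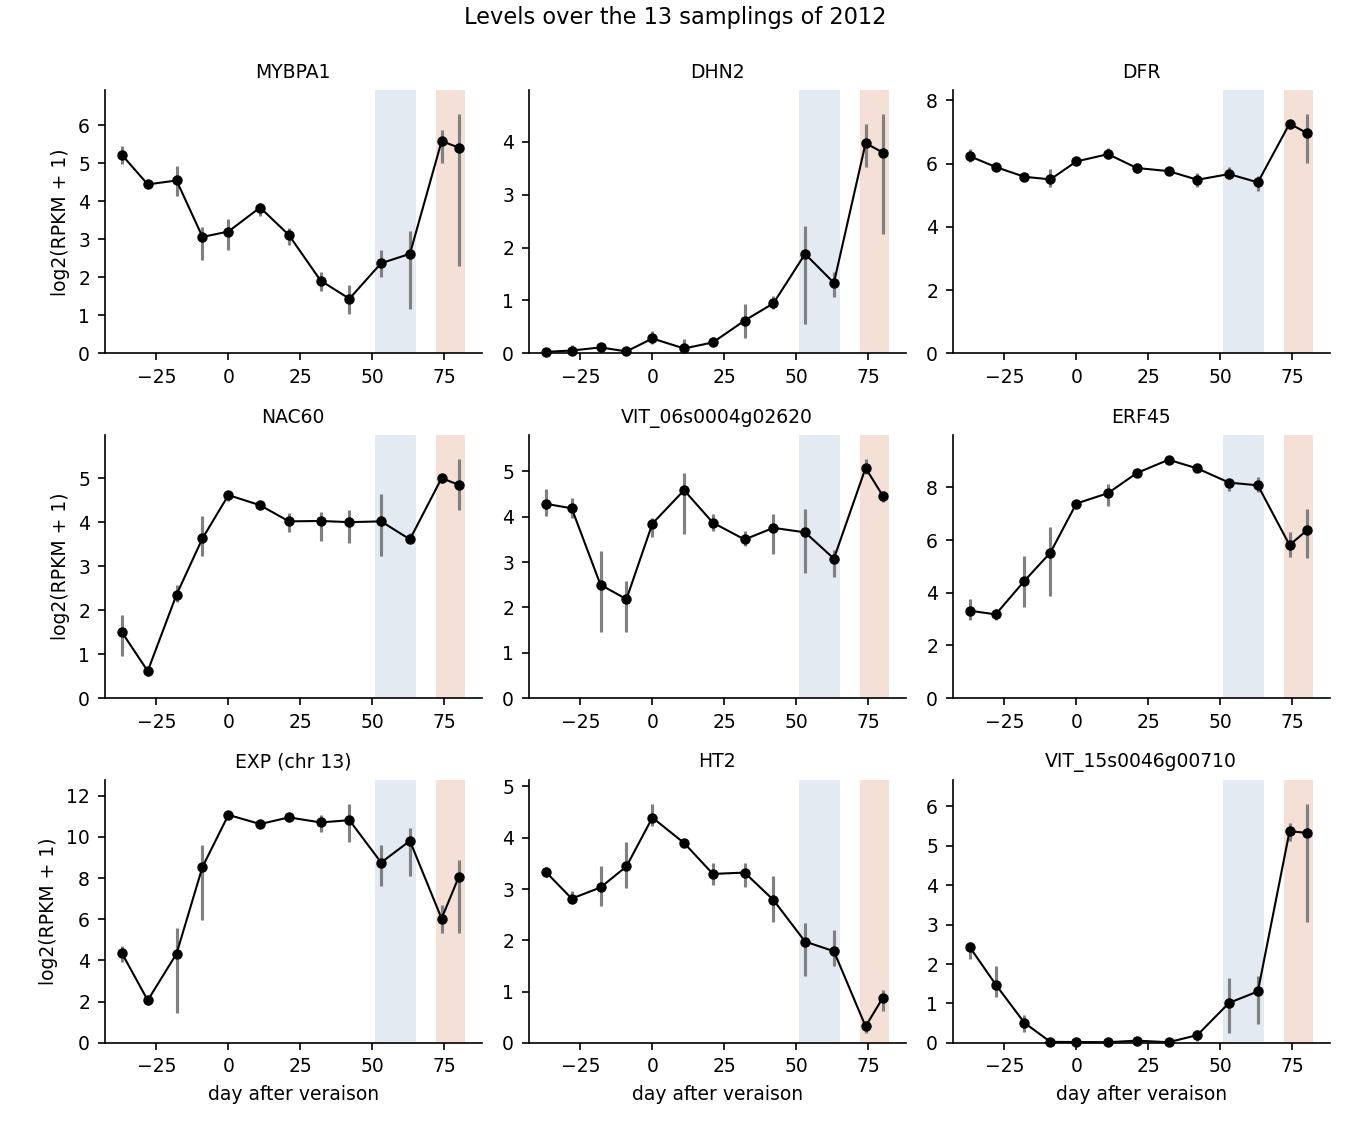
Mean level of 9 of the genes described, on the log2(RPKM + 1) scale, over the 13 samplings of 2012, with bars from the lowest to the highest of 3 libraries. Blue and orange bands mark the earlier and the late days. DHN2 and DFR are highest in the orange band, MYBPA1 is high at both ends of the season, and ERF45, HT2 and the chromosome 13 expansin drop into the band.

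To see whether the late change differed from that of other seasons, the last 4 samplings of Cabernet Sauvignon in 2013 and 2014 (days 43, 49, 56 and 63, and days 42, 49, 56 and 63) were contrasted in the same way, the last 2 days minus the 2 before. Those days came earlier after veraison and were a week apart. In a fit of the 36 libraries, the 2012 change differed from that of 2013 in 74 of 17659 genes (0.419%), 9 with a higher (0.051%) and 65 with a lower log2 change in 2012 (0.368%). It differed from that of 2014 in 226 genes (1.28%), 124 (0.702%) and 102 (0.578%). The seasons' own changes held 499 called genes in 2013 (2.83%), 229 higher (1.3%) and 270 lower (1.53%), and 388 in 2014 (2.2%), 100 higher (0.566%) and 288 lower (1.63%).

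Genes called in 2012 mostly moved the same way in the other seasons, whose libraries took no part in calling them. In 2013, 98.8% of the 481 higher genes had a positive change (50.8% of all genes tested) and 93.9% of the 602 lower genes a negative one (48.7% of all). In 2014 these shares were 96.7% (57.9% of all) and 97.2% (41.6% of all). Called the same way in 2013 were 182 of the higher genes, 37.8% of the 2012 list and 79.5% of the 2013 list, and 229 of the lower genes, 38% and 84.8%. None was called the opposite way. The 2014 change called 75 of the higher genes (15.6% and 75% of the lists) and 172 of the lower ones (28.6% and 59.7%), again none the opposite way. Median changes of the higher genes were 1.29 in 2012, where they were chosen, 0.86 in 2013 and 0.61 in 2014, and those of the lower genes -1.29, -0.9 and -0.73.

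Other samplings were placed on the same kind of scale, with the genes called and the side means taken from all 12 libraries. No allowance was made for level differences between seasons. The samplings of 2013 had medians of 0.08, 0.24, 0.52 and 1.11 on days 43, 49, 56 and 63, and those of 2014 -0.29, -0.02, 0.22 and 0.43 on days 42, 49, 56 and 63. The 3 libraries of day 63 in 2013, with 26.36 to 27.74 g of sugar per 100 ml, lay at 1 to 1.15. The late 2012 libraries, each placed by a fit that left it out, lay at 0.88 to 1.2, apart from replicate 2 of day 80 at 0.36. The last 2014 libraries, with 23.46 to 26.22 g, lay at 0.41 to 0.55. In 2012 itself, days 0 to 32 had medians of -0.48 to -0.47 and day 42 had -0.34.

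Of the 20 called list genes, all had a change of the same sign in 2013 and 17 in 2014, and 10 and 5 were called there (the call shares over all genes were 2.83% and 2.2%). No list gene was called by the test of the difference between 2012 and 2013. For MYB5b the difference was 0.23 ± 0.06 (SE, adjusted p = 0.0336), under the size asked for. Against 2014, 7 of the 20 were called by that test (1.28% of all genes were). The 20 genes were chosen by a large change in 2012, which also enters that test, so differences from 0 are favoured. Of them, 19 changed more in 2012 than in 2014, and 20 more than in 2013. The thaumatin-like gene VIT_02s0025g04300 changed by 1.12 in 2013 and -0.12 in 2014, a difference of 2012 from 2014 of 1.35 ± 0.24 (SE, adjusted p = 0.000614). ERF45 changed by -1.16 and -0.48 (-1.67 ± 0.34 SE, adjusted p = 0.00178), and DHN2 by 1.70 and 0.67 (1.56 ± 0.51 SE, adjusted p = 0.0345). VIT_05s0077g01540 of the PR10 cluster changed by 0.83 and -0.44 (2.00 ± 0.45 SE, adjusted p = 0.00349), and LAR2 by 1.10 and 0.18 (1.32 ± 0.42 SE, adjusted p = 0.0297). HT2 changed by -1.22 in 2013 and -1.19 in 2014, and the difference from 2014 was -0.05 ± 0.23 (SE, adjusted p = 0.913).

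SWEET10, not called in 2012, fell in 2014 (-2.85, against -0.70 in 2012), and the difference was 2.15 ± 0.47 (SE, adjusted p = 0.00284). Both genes outside the lists that rose, chosen by their change in 2012, also differed from 2014, VIT_15s0046g00710 by 2.51 ± 0.52 (SE, adjusted p = 0.00208) and VIT_07s0005g00870 by 1.65 ± 0.57 (SE, adjusted p = 0.0453). VIT_18s0001g06150 was the one named gene called by the difference from 2013, at -1.36 ± 0.41 (SE, adjusted p = 0.0481). The samplings of the seasons differed in day, spacing and sugar content, and these cannot be told apart from the season.

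**Figure D5:**
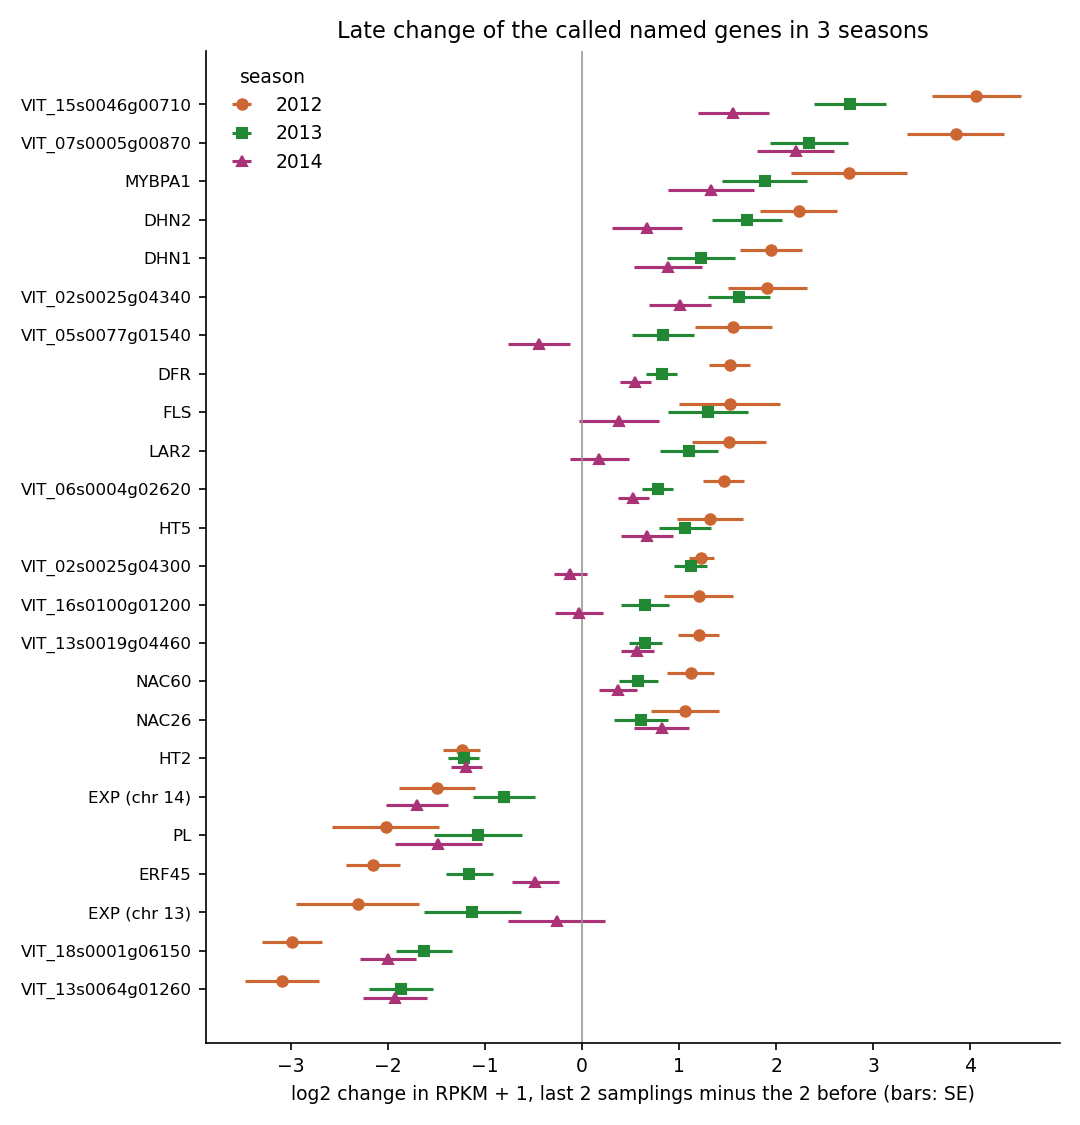
Late change of the 24 called named genes on the log2(RPKM + 1) scale, with bars of 1 SE, in 2012 (orange circles), 2013 (green squares) and 2014 (purple triangles). The 2013 changes have the sign of 2012 for every gene shown. For 19 of the 20 list genes shown, DHN2, ERF45 and VIT_02s0025g04300 among them, the 2014 change is smaller in size than that of 2012.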

How the data were processed

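Gene expression was measured by RNA sequencing of pericarp from 12 pools of Cabernet Sauvignon berries of 2012 (3 libraries on each of 4 days), with 24 libraries of 2013 and 2014 for comparison. The deposited table of the whole series holds RPKM for 29971 gene IDs, computed by the authors. Per the submitters' processing notes, TopHat2 2.0.6 and Cufflinks 2.0.2 were used. The genome build, the annotation and the assignment of reads shared by gene copies are not given in the sources used here. Libraries did not keep strand, per the labels' protocols, so overlapping genes on opposite strands cannot be separated. Read counts are not part of the table, and without depth no counting error can be given.

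Values were transformed to log2(RPKM + 1), and a gene was tested if 3 or more libraries of a fit had 1 RPKM or more. Tests were run in R 4.3.3 with limma 3.58.1, with a mean-variance trend, robust moderation and Benjamini-Hochberg adjustment over all genes tested. The main fit had a mean for each of the 4 days (8 residual degrees of freedom), and the contrast was the mean of days 74 and 80 minus the mean of days 53 and 63. The season comparison was an interaction contrast over 36 libraries (24 residual degrees of freedom). A gene was called at an adjusted p under 0.05 and a log2 change of 1 or more in size. The script was tested on simulated data: of 16837 genes simulated for the late against the earlier side, 99 of 100 changed by 2 on the log2 scale were recovered, 85 of 100 changed by 1.2, and 1 unchanged gene was called. The simulated noise was independent between genes and libraries, and few genes changed, unlike in these data. These rates therefore check the script and do not give the error of the calls made here. Sugar content was compared with an exact permutation test over 924 splits, also in R. Python 3.11.15, with numpy 2.4.6, scipy 1.17.1 and matplotlib 3.10.9, was used for 3 further tasks. These were the correlations of position with sugar content (720 permutations), the marking of outlying libraries and the figures.

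The table gives IDs only. Symbols were taken from published use of the IDs. No ID matched the RefSeq gene table of assembly ASM3070453v1 directly, and 26 list symbols were found in it, 24 on the chromosome that the ID carries, 1 under an ID without a chromosome number, and 1 on another chromosome, which was dropped. The lists, their members and the comparison were chosen with earlier results of these data known, so a pattern already seen in them is no independent support. Per list, the text names up to 4 called members with the largest change, in lists with fewer than 4 called members up to 2 abundant members that were not called, and up to 2 called only in a step or season contrast. Of genes in no list, 2 higher and 2 lower with the largest change, no overlap and a mean of at least 5 RPKM were named.

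Alternatives were a pseudocount of 0.1 or 5, all genes without a filter, genes with a mean RPKM of 5 or more, quantile normalization, median-of-ratios scaling, a fit of every library of the series, 2 groups of 6 libraries without day means, a replicate block, day means as replicates, the treat test of limma with a bound of 0.5 on the log2 scale, and leaving out each library or day. A sugar covariate and the list counts without replicate 2 of day 80 were chosen after seeing the data.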

Additional observations from a re-analysis of the deposited data

Results flagged for a closer look

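A library was marked where the gap between it and its nearest neighbour, as a share of the range of its side, was above 0.625, Dixon's critical value for 6 libraries. Chance marks about 1 in 20 groups. Of 128 groups tested, 15 held such a library, and in 12 of them it was replicate 2 of day 80. For that library the share was 0.747 for sugar content, 0.651 for the sum of RPKM, 0.664 for GST4, 0.709 for AM1, 0.711 for CHS3, 0.679 for MYBPA1 and 0.705 for VIT_05s0077g01580. It was 0.749 for NAC26, 0.748 for NAC13, 0.687 for VIT_16s0013g01050, 0.688 for VIT_15s0046g00710 and 0.822 for VIT_07s0005g00870. Low sugar, levels near those of the earlier side and a high RPKM sum came together in 1 library. Whether its berries were less ripe or its label belongs to another sampling was not tested.

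Other libraries were marked for 1 gene each. The share was 0.829 for VIT_05s0077g01530 in replicate 3 of day 53, 0.797 for CCD1 in replicate 3 of day 80 and 0.757 for SWEET10 in replicate 1 of day 74.

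Among the 60 named genes, the late change differed between seasons, by the interaction test, for 13 gene and season pairs. Over all genes the shares were 0.419% against 2013 and 1.28% against 2014. VIT_05s0077g01530, VIT_02s0025g04330 and SWEET10 were named because this test called them. The others were named for a large change in 2012, which enters the test, so the count is favoured by the choice of genes. Against 2013 the difference in log2 change was -1.36 for VIT_18s0001g06150. Against 2014 it was 1.32 for LAR2, 1.23 for VIT_16s0100g01200, 2.00 for VIT_05s0077g01540, 1.03 for VIT_05s0077g01530, 1.35 for VIT_02s0025g04300, 1.38 for VIT_02s0025g04330 and 2.15 for SWEET10. It was -1.67 for ERF45, 1.56 for DHN2, -2.05 for the expansin VIT_13s0067g02930, 2.51 for VIT_15s0046g00710 and 1.65 for VIT_07s0005g00870.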

How the results depend on the processing

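The count of 1083 genes called between the sides was 1881 with a pseudocount of 0.1, 423 with 5, 642 with the treat test and 666 with sugar content as a covariate. It ran from 872 to 1362 when 1 library was left out (1362 without replicate 2 of day 80), and was 745 without day 74 and 1464 without day 80. The step from day 53 to 63 went from 0 to 4 genes with a pseudocount of 5, to 46 in the fit of every library and to between 0 and 10 without 1 library. That from day 63 to 74 went from 1579 to 654 with a pseudocount of 5, to 1033 with a mean RPKM of at least 5 and to between 1112 and 1863 without 1 library. That from day 74 to 80 went from 0 to 1 with median-of-ratios scaling, to 216 in the fit of every library and to between 0 and 1 without 1 library.

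The difference from 2013 went from 74 genes to 128 with a pseudocount of 0.1, 24 with 5 and 31 with a mean RPKM of at least 5. The difference from 2014 went from 226 to 497, 85 and 149. Without 1 library these counts ran from 46 to 177 and from 139 to 417. Both were highest without replicate 2 of day 80 (109 and 274 at most without any other library). The sugar difference ran from 3.16 to 4.72 g per 100 ml. Within days, 4703 genes followed sugar content (adjusted p under 0.05), and 122 without replicate 2 of day 80.

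Over the 24 called named genes, 584 gene and setting pairs kept the call and 83 lost it, and none changed direction. Among uncalled genes 11 pairs changed direction. With sugar content as a covariate these were GST4 (VIT_04s0079g00690, 0.11), VIT_08s0040g01710 (-0.07), VIT_05s0094g00340 (0.13), HT3 (VIT_11s0149g00050, 0.18), VIT_16s0013g01050 (0.35), VIT_16s0013g00990 (0.03) and XTH (VIT_06s0061g00550, 0.42). VIT_16s0039g01100 was at 0.17 without day 53, VIT_05s0077g01560 at -0.11 without day 63 and -0.04 without replicate 2 of day 53 (range without 1 library -0.04 to 0.71), and CCD4a (VIT_02s0087g00910) at 0.05 without replicate 2 of day 63 (range -0.38 to 0.05). The cause of these changes was not tested.

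Replicate numbers did not pair the samples: over 18 pairs of same-numbered libraries the correlation of deviations ran from -0.44 to 0.22 (median -0.04), and 4 were over 0.1. With a replicate block the counts were 1073 between the sides, 1487 from day 63 to 74, 70 against 2013 and 212 against 2014. With depth unknown, a change in genes near 1 RPKM is the least certain.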

Other observations

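Replicate 2 of day 80 was not uniformly like an earlier library. For 670 of the 1083 called genes it lay outside the earlier range, but it took part in calling them, which favours such genes. Over the 1362 genes called without it, its median position was 0.36, with quartiles of 0.08 and 0.7. The thaumatin-like genes VIT_02s0025g04300 and VIT_02s0025g04340 were at late levels in it (268 and 75.9 RPKM), while MYBPA1 and LAR2 were at earlier ones (3.88 and 0.959 RPKM). NAC26 was higher in it (182 RPKM) than in any of the other 11 libraries, which lay between 14.5 and 53.9 RPKM.

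In the sugar scale of the labels, 2 libraries of nearly equal content lay far apart in position. Replicate 2 of day 53 (26.06 g per 100 ml) was at 0.28 and replicate 1 of day 80 (25.93 g per 100 ml) at 0.88.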
